A study of Homo sapiens with 52 samples.

Results

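Tubulin genes were followed by RNA-seq in cultured cells of fusion-positive rhabdomyosarcoma (FP-RMS) under inhibitors of chromatin proteins. The set held 10 of the 27043 genes in the tables and was chosen by gene symbol: the alpha-tubulin genes TUBA1A, TUBA1B, TUBA1C and TUBA4A and the beta-tubulin genes TUBB, TUBB2A, TUBB2B, TUBB3, TUBB4B and TUBB6. TUBB was listed at 0 in all 52 samples, so 9 members could be tested. Expression is given as TPM, a transcript abundance adjusted for gene length and library size, so that levels of different genes can be set side by side.

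FP-RMS is a childhood muscle-like tumour driven by the PAX3-FOXO1 fusion, which all lines here carry. In the screen, 20 compounds were each applied for 6 h at a low dose and at a dose 10 times higher, with 1 sample per dose, and 4 DMSO (solvent) samples served as controls. Of these controls, 2 held 0.1% and 2 held 0.2% DMSO. The doses were 0.5 and 5 µM for LAQ824, Cpd50 and GSKJ4 and 1 and 10 µM for the other compounds. The compounds labelled with deacetylases (HDACs) were LAQ824 (HDAC), WT161 (HDAC6), MC 1568 (HDAC4/5), Merck60 (HDAC1/2) and OJI-1 (HDAC8). Bromosporin (bromodomains) and SGC-CBP30 (CREBBP/EP300 bromodomain) completed the acetylation axis of 7 compounds. The 11 methylation-axis compounds were EZ-005 (EZH2), UNC1999 (EZH1), UNC0638 (KMT1C), SGC0946 (DOT1L), PFI-2 (SETD7), GSKLSD1, LSD-519 and LSD-690 (LSD1), GSKJ4 (JMJD3/UTX), Cpd50 (Jumonji demethylases) and UNC-1215 (L3MBTL3). PFI-3 (SMARCA4) and the MEK1/2 inhibitor trametinib belonged to neither axis. Outside the screen, 1 µM N1302 (HDAC) was given for 6 h and 1 µM entinostat (HDAC1/2/3) for 1, 6 and 24 h, each with 0.1% DMSO and 1 sample per condition. The cell line label was RH4 throughout, whereas the titles of the screen samples read RH41, another FP-RMS line.

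Microtubules are polymers of alpha- and beta-tubulin dimers, and cells express several genes for each subunit that differ mainly in their tails and in where they are used. TUBB3 is known as a neuronal beta-tubulin, TUBB2A, TUBB2B and TUBA1A are abundant in developing nerve, TUBB4B and TUBA1B are widely expressed, and TUBB6 is known from muscle and other non-neural cells. Alpha-tubulin is acetylated on a lysine inside the microtubule by ATAT1 and deacetylated by HDAC6 and SIRT2. HDAC6 is therefore called the tubulin deacetylase, and WT161 is the screen compound labelled with it. RNA-seq reads neither this acetylation nor the polymer, only the amount of each transcript.

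The promoters of the 4 beta-tubulin genes that rose with LAQ824 (TUBB2A, TUBB2B, TUBB3 and TUBB4B) are shown because these genes moved together. Each is the 250 bases before the annotated start, 5′ to 3′ on the gene's strand, from RefSeq (GRCh38.p14). Capitals mark, on either strand, the CCAAT box (letters CCAAT), the TATA box (letters TATAA) and the core of the cyclic AMP response element (letters TGACGT). These motifs were picked after the sequences had been seen.
TUBB2A: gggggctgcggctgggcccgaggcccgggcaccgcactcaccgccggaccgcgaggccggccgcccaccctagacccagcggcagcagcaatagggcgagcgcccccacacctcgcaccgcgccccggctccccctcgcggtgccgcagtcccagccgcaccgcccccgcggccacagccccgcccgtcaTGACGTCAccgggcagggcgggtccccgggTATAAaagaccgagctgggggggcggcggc
TUBB2B: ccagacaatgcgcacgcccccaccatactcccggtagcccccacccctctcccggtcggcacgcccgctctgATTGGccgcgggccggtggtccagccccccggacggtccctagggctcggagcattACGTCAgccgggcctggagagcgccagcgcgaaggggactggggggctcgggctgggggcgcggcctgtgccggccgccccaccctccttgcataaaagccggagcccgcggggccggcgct
TUBB3: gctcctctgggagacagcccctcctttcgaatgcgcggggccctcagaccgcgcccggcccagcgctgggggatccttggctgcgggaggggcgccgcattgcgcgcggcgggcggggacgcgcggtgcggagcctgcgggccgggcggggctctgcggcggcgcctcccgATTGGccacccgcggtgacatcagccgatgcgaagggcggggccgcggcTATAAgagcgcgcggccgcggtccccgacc
TUBB4B: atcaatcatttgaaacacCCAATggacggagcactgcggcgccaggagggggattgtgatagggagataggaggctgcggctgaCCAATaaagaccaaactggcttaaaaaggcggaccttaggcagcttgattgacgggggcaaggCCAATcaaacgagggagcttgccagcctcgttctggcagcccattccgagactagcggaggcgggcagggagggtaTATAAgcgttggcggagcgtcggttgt
They lie at chr6:3157545-3157794 (minus strand), chr6:3227654-3227903 (minus), chr16:89923092-89923341 (plus) and chr9:137241037-137241286 (plus). TUBB2A, TUBB3 and TUBB4B hold TATAA, which starts 30, 30 and 27 bases before the start. TUBB2B holds no TATAA but has ATTGG, the reverse of CCAAT, 178 bases before its start. TUBB3 has ATTGG at 79 bases, and TUBB4B has CCAAT at 232, 166 and 103 bases. TGACGT was found in TUBB2A, where it overlaps its own reverse at 60 and 58 bases, and in TUBB2B at 122 bases in reverse. Of 35116 RefSeq promoters of this length, 32.0% hold the CCAAT box, 18.9% the TATA box and 7.1% the response element core on either strand. The CCAAT and TATA boxes are not particular to these 4 genes. TATAA is also found in TUBA4A at 29 bases and in TUBA1C at 31 bases. CCAAT or its reverse is also found in TUBB6 at 68, TUBA1A at 125 and 88 and TUBA1C at 160 bases. The GC box (letters GGGCGG), held by 42.6% of promoters, was also searched and is not marked. A match describes letters in the window and is no evidence of a bound factor. TUBB3 has a second annotated start upstream, whose 250 bases hold none of the 3 motifs.

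In the files' build (hg19), TUBA1B, TUBA1A and TUBA1C lie close together on chromosome 12, TUBB2A and TUBB2B on chromosome 6, TUBA4A on chromosome 2, TUBB4B on chromosome 9, TUBB3 on chromosome 16 and TUBB6 on chromosome 18. All 10 are protein-coding. Parts of these genes are near copies, and how reads shared among copies were divided or left out was set by the authors' counting. Of the 100-base windows of the main transcript, 55.6% of TUBB2A and 48.7% of TUBB2B also occur in transcripts of other genes, mostly each other. For TUBA1B, TUBA1A and TUBA1C these shares were 37.2%, 21.2% and 12.3%. For TUBB3 the share was 92.5%, almost all with the annotated readthrough gene that contains it. TUBB4B (3.0%), TUBA4A (1.9%) and TUBB6 (0.0%) have transcripts that are nearly unique. Values of TUBB2A and TUBB2B, and of the alpha genes on chromosome 12, are therefore uncertain, as a split between copies or through reads left out. TUBB, the main beta-tubulin gene of many cultured cells, lies at chr6:30687978-30693203 (hg19). Of 23 listed genes within 200000 bases of it, 21 were listed at 0 in all samples, ATAT1 among them, against 12.6% of all genes. The 0 of TUBB and ATAT1 is therefore not read as a lack of transcript.

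Depth was recovered from the steps between TPM values and lay between 5737939 and 41415071 reads, with a median of 15055060. The fewest reads behind a member's value in any sample were 40 for TUBB2A, 47 for TUBB3 and 219 for TUBB2B, and the other tested members had at least 780. Depth and control followed the flow cell: 14 compounds (28 samples) were run on C5JW5ACXX, which held no DMSO. GSKLSD1 and UNC-1215 were run on H0VWNAGXX, which held no DMSO either. The 2 runs of each DMSO concentration were on different flow cells and differed by a part that both concentrations shared, with a median of 2.21 times the counting variance. What remained was 1.03 times that variance, and the runs of a concentration were averaged and counted as 1 sample, so DMSO has n = 2. With all 4 DMSO runs as separate samples, each of the 22 tubulin calls given below still passed. Nothing in the labels states that samples came from separate cultures, so p-values measure the spread between these samples, which may be technical. Myogenic identity was checked with 9 markers. MYOD1, MYOG, DES and the other listed markers summed to between 2776 and 2857 TPM in the screen DMSO samples, with MYF5 under 1 TPM and MYMK not listed, while the leukocyte marker PTPRC was at 0.

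TUBA1B was the most abundant of the 9 measured tubulin transcripts in the DMSO cells. Its level was 3212 ± 48.2 TPM (SD, n = 2 DMSO concentrations), followed by TUBB4B at 1327 ± 0.361 TPM. TUBA1C (539.9 ± 5.60), TUBA1A (501 ± 0.804), TUBB6 (355 ± 4.71) and TUBA4A (257 ± 7.24 TPM) formed a middle range. TUBB2B (74.5 ± 3.13), TUBB3 (30.4 ± 1.15) and TUBB2A (15.9 ± 1.20 TPM) were low. Each SD is between the means of the 2 concentrations and leaves out the spread between runs. Single DMSO samples ran from 477.8 to 523.0 TPM for TUBA1A and from 1318 to 1337 TPM for TUBB4B. Neighbours in this order did not overlap over the 4 DMSO samples, the closest being TUBA1C (lowest 525.6 TPM) and TUBA1A (highest 523 TPM). The 4 alpha genes summed to between 4389 and 4645 TPM and the 5 measured beta genes to between 1790 and 1821 TPM, the latter without TUBB. TUBB2A, TUBB2B and TUBB3 together made up 6.61 to 6.88% of the measured beta-tubulin transcripts.

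Across the 40 treated samples the low genes varied most. TUBB3 ranged from 10.6 TPM (UNC0638, 10 µM) to 243.5 TPM (bromosporin, 10 µM), a 23.1-fold range, TUBB2A over 10.3-fold and TUBB2B over 9.06-fold. The ranges of TUBB6 (4.75-fold), TUBB4B (3.91-fold), TUBA4A (3.54-fold), TUBA1A (2.56-fold), TUBA1B (2.06-fold) and TUBA1C (1.52-fold) were narrower. TUBB4B was higher than in every DMSO sample in 7 treated samples and lower in 32, and TUBB6 in 3 and 37.

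**Figure D1:**
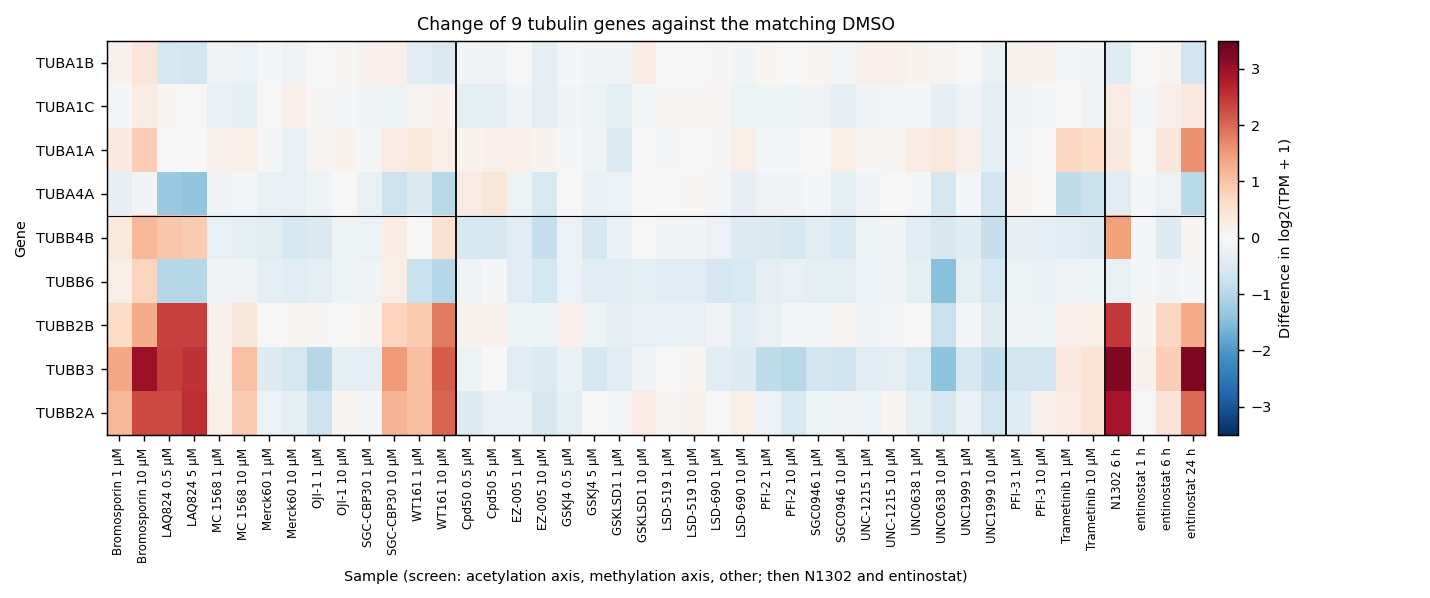
Heat map of the change of the 9 measured tubulin genes (rows; alpha genes above the thin line, beta genes below) in each treated sample (columns), as the difference in log2(TPM + 1) from the matching DMSO, red for higher and blue for lower. LAQ824, WT161, bromosporin, N1302 and entinostat at 24 h stand out in red in the rows of TUBB2A, TUBB3 and TUBB2B, with TUBB3 at 3.28 for N1302 and 3.26 for entinostat at 24 h. SGC-CBP30 and MC 1568 at 10 µM are also red in these rows, with TUBB3 at 1.49 and 1.03, beside 1.05 for WT161 at 1 µM.

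Each compound, both doses together, was set against DMSO with limma on log2(TPM + 1), so that a fold change understates the change of a low gene. A gene passed at a Benjamini-Hochberg adjusted p under 0.05 over all 16359 tested genes of that comparison. In the 180 tests of 9 tubulin genes in 20 compounds, 22 passed, 14 higher and 8 lower, in 5 compounds. Over all pairs of a gene and a compound 8.7% passed, 4.54% higher and 4.16% lower, so the count of tubulin calls as such is not read as particular to these genes. TUBB2A, TUBB2B and TUBB3 rose with 3 compounds each, TUBB4B and TUBA1A with 2, and TUBA1B with 1. TUBA4A and TUBB6 each fell with 3 compounds and TUBA1B with 2. TUBA1C passed with no compound.

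LAQ824, labelled with HDAC and no isoform, changed the most tubulin genes. TUBB2B was at 380.5 TPM at 0.5 µM and 403.2 TPM at 5 µM, against 69.4, 75.3, 79.4 and 74.1 TPM in the DMSO samples. TUBB3 was at 172 and 175.3 TPM against 31.7, 30.6, 29.1 and 30.0 TPM. TUBB2A was at 86.0 and 95.5 TPM against 18.2, 15.2, 15.2 and 14.8 TPM. Both LAQ824 samples lay far above all DMSO samples for these 3 genes, and the 10-fold step in dose added little. The estimated rises were 2.38 ± 0.26 (log2, SE) for TUBB2B, 2.48 ± 0.43 for TUBB3 and 2.45 ± 0.33 for TUBB2A, that is 5.20-, 5.57- and 5.45-fold, with limma adjusted p of 9.5e-08, 3.9e-05 and 1.7e-06. TUBB4B, the most abundant measured beta gene, rose from 1318 to 1337 TPM in DMSO to 2589 and 2476 TPM, by 0.93 ± 0.20 (limma adjusted p = 0.00041).

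The genes that fell with LAQ824 were from both families. TUBA4A, an alpha-tubulin that is abundant in muscle and platelets, was at 105 and 96.3 TPM against 245.3 to 269.6 TPM in DMSO, a log2 change of -1.35 ± 0.20. TUBB6 was at 179.4 and 175.6 TPM against 342.6 to 362.9 TPM (-0.99 ± 0.21). TUBA1B was at 2120 and 2046 TPM against 3140 to 3310 TPM (-0.62 ± 0.11). No LAQ824 value of these genes overlapped with DMSO, and their limma adjusted p were 5.9e-06, 0.00031 and 3.7e-05. TUBA1A (-0.01, 95% interval -0.33 to 0.31) and TUBA1C (0.02, -0.21 to 0.26) did not pass. With 4 members higher and 3 lower, the background is wide: LAQ824 raised 28.4% and lowered 24.6% of all tested genes, and these 7 of 9 calls are to be read against that. The median change over the 9 members was 0.02 against 0.06 over all tested genes.

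WT161, the compound labelled with HDAC6, raised the same trio of low beta genes. TUBB3 was at 65.8 TPM at 1 µM and 132.3 TPM at 10 µM. TUBB2A was at 35.9 and 65.1 TPM, and TUBB2B at 138.5 and 271.9 TPM. Every WT161 value was above every DMSO value, and the 10 µM sample was higher than the 1 µM sample in each of the 3 genes. The rises were 1.59 ± 0.43 (log2, SE) for TUBB3, 1.56 ± 0.33 for TUBB2A and 1.37 ± 0.26 for TUBB2B, with limma adjusted p of 0.0065, 0.00097 and 0.00028. TUBB6 (207.5 and 174.1 TPM) fell by 0.90 on the log2 scale, TUBA4A (182.9 and 128 TPM) fell by 0.75 and TUBA1B (2518 and 2218 TPM) fell by 0.44, with limma adjusted p of 0.0021, 0.0061 and 0.0030. TUBB4B was at 1329 TPM at 1 µM, inside the DMSO range, and at 1929 TPM at 10 µM (0.27, 95% interval -0.14 to 0.68). TUBA1A (646.9 and 587.3 TPM) was above DMSO in both samples, but its difference of 0.30 did not pass (limma adjusted p = 0.15). WT161 raised 17.7% and lowered 14.3% of all tested genes, beside 3 and 3 of the 9 members, and the medians were 0.27 for the members and 0.03 for all genes. The transcript of HDAC6 itself was at 29.6 to 32.2 TPM in DMSO and 22.0 to 47.6 TPM over the treated samples.

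**Figure D2:**
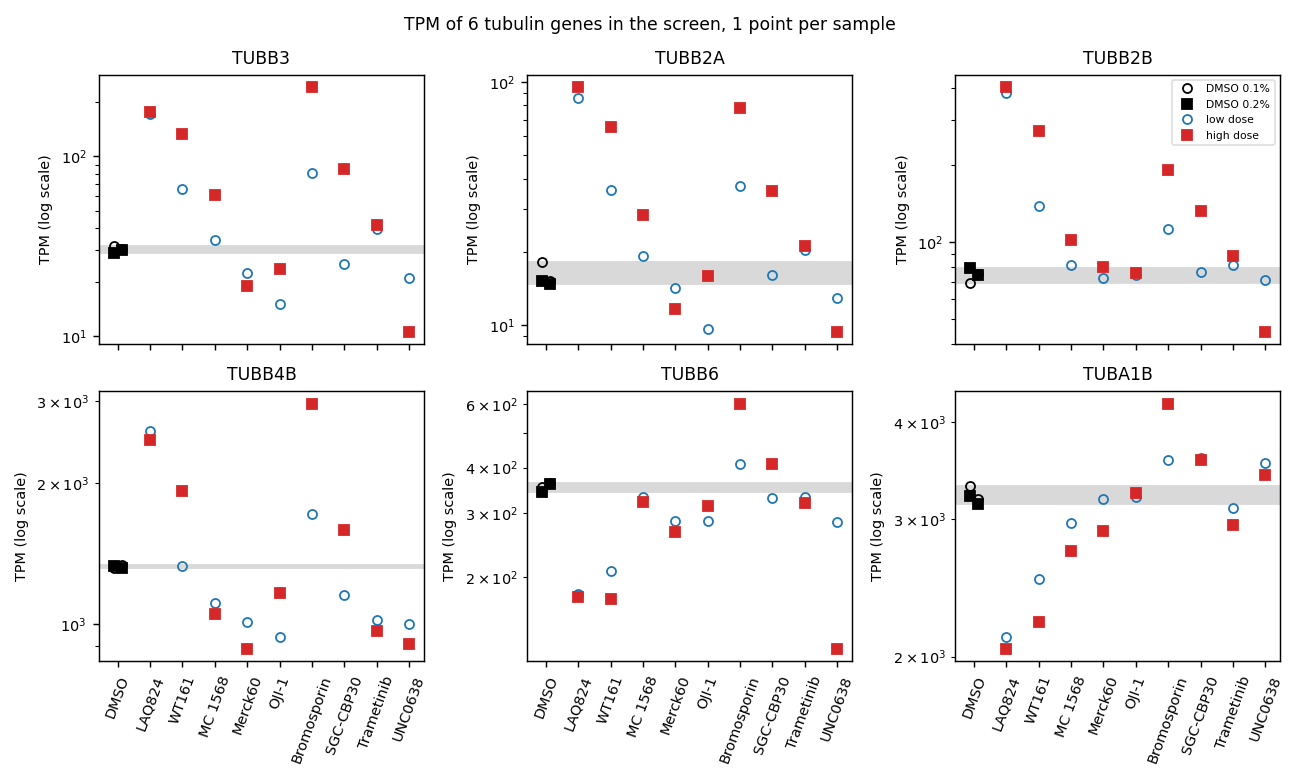
TPM (log axis) of TUBB3, TUBB2A, TUBB2B, TUBB4B, TUBB6 and TUBA1B in single samples of the screen, with open circles for 0.1% DMSO and low doses, squares for 0.2% DMSO and high doses, and a grey band over the 4 DMSO samples. In the upper row LAQ824, WT161 and bromosporin lie above the band at both doses, while in the lower row TUBB6 and TUBA1B lie below it with LAQ824 and WT161 and above it with bromosporin.

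The other HDAC compounds of the screen gave no tubulin gene past the threshold. MC 1568, labelled with HDAC4/5, called 22.5% of all tested genes in either direction but 0 of 9 members. At 10 µM it had TUBB3 at 61.2, TUBB2B at 101.7 and TUBB2A at 28.5 TPM, each above all DMSO samples, and at 1 µM 34.5, 81.0 and 19.2 TPM, also above them. The differences over both doses were 0.58 (95% interval -0.30 to 1.47), 0.28 (-0.24 to 0.81) and 0.54 (-0.14 to 1.22). Merck60 (HDAC1/2) called 0.116% and OJI-1 (HDAC8) 0.171% of all genes, and 0 of 9 members each. TUBB3 was at 22.5 and 19.0 TPM with Merck60 and at 15.1 and 23.5 TPM with OJI-1, in all 4 samples below DMSO. At an unadjusted limma p under 0.05, MC 1568 had 1 member (TUBA1C), Merck60 had 1 (TUBB4B) and OJI-1 had 0.

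To ask whether WT161 differed from the other HDAC compounds, the difference itself was tested in the same limma fit, 36 tests in all, with p adjusted over all genes of each contrast. MC 1568, Merck60 and OJI-1 had the same doses and time as WT161, but MC 1568 was run on another flow cell, so for that pair compound and flow cell cannot be told apart. Against Merck60, 6 of 9 members differed, with TUBB3 2.12 ± 0.43 (log2, SE), TUBA1A, TUBB2A, TUBB2B and TUBB4B higher in WT161 and TUBA1B lower, beside 31.5% of all genes. Against OJI-1, 7 members differed, with TUBB3 (2.25), TUBB2A (1.88), TUBB2B (1.36) and TUBB4B (0.61) higher and TUBA4A, TUBB6 and TUBA1B lower, beside 35.1%. Against MC 1568, 7 members differed, beside 41.3% of all genes. TUBB2B (1.09), TUBB2A (1.02), TUBB4B (0.57) and TUBA1C (0.40) were higher with WT161, and TUBB6 (-0.78), TUBA4A (-0.67) and TUBA1B (-0.27) were lower. TUBB3 was 1.01 higher with WT161 than with MC 1568 (95% interval 0.12 to 1.89), which did not pass (limma adjusted p = 0.064).

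WT161 and LAQ824 were given at different doses, 1 and 10 µM against 0.5 and 5 µM, so their values are set side by side and the test describes these samples only. TUBB2B (138.5 and 271.9 against 380.5 and 403.2 TPM) and TUBB4B (1329 and 1929 against 2589 and 2476 TPM) were lower with WT161, by -1.01 and -0.66 in log2, and TUBA4A was 0.60 higher. These 3 of 9 passed, beside 16.3% of all genes, of which 1466 were higher and 1200 lower with WT161 (1149 and 1632 with median-ratio scaling). TUBB3 differed by -0.89 (95% interval -1.78 to 0.00), TUBB2A by -0.89 (-1.57 to -0.21) and TUBB6 by 0.10 (-0.33 to 0.53). The compounds were also run on different flow cells.

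Bromosporin, which blocks the acetyl-lysine pocket of many bromodomains, raised tubulin genes of both families. TUBB3 was at 80.5 TPM at 1 µM and 243.5 TPM at 10 µM, the highest TUBB3 level of the screen. TUBB2A was at 37.4 and 78.2 TPM and TUBB2B at 112.4 and 190.6 TPM. All 6 values exceeded every DMSO value, and each gene was higher at 10 µM. TUBB4B was at 1721 and 2961 TPM, TUBA1A at 630.4 and 915.3 TPM and TUBA1B at 3579 and 4223 TPM, again all above DMSO. The log2 rises were 2.17 ± 0.43 (SE) for TUBB3, 1.71 ± 0.33 for TUBB2A, 0.97 ± 0.26 for TUBB2B, 0.77 ± 0.20 for TUBB4B, 0.60 ± 0.16 for TUBA1A and 0.28 ± 0.11 for TUBA1B. Their limma adjusted p were 0.00060, 0.00048, 0.0051, 0.0048, 0.0043 and 0.049. TUBB6, at 409.6 and 600.9 TPM, was above DMSO in both samples and did not pass (0.48 ± 0.21, limma adjusted p = 0.073). Bromosporin raised 12.4% and lowered 23.4% of all tested genes, and of the 9 members it raised 6 and lowered 0. The medians were 0.60 for the members and -0.12 for all tested genes.

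TUBB2A, TUBB2B and TUBB3 thus rose with LAQ824, WT161 and bromosporin, whereas other members differed between these compounds. TUBB6 differed by 1.48 (log2) between bromosporin and LAQ824 and by 1.38 between bromosporin and WT161, at limma adjusted p of 4.9e-06 and 2.7e-05. TUBA1B differed by 0.90 and 0.72 and TUBA4A by 1.16 and 0.56 in the same comparisons, all higher with bromosporin. Against LAQ824, TUBA1A was also higher (0.61) and TUBB2B lower (-1.41) with bromosporin, 5 of 9 members beside 40.7% of all genes. Bromosporin and LAQ824 also differed in dose and flow cell, so for this pair compound, dose and flow cell cannot be told apart. Against WT161, where doses matched, 3 of 9 members differed beside 29.5% of all genes (1355 higher and 3475 lower, and 1973 and 2682 with median-ratio scaling). TUBB3 differed by -0.31 (95% interval -1.20 to 0.58) from LAQ824 and by 0.58 (-0.31 to 1.47) from WT161. These contrasts were added after the opposite signs had been seen.

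**Figure D3:**
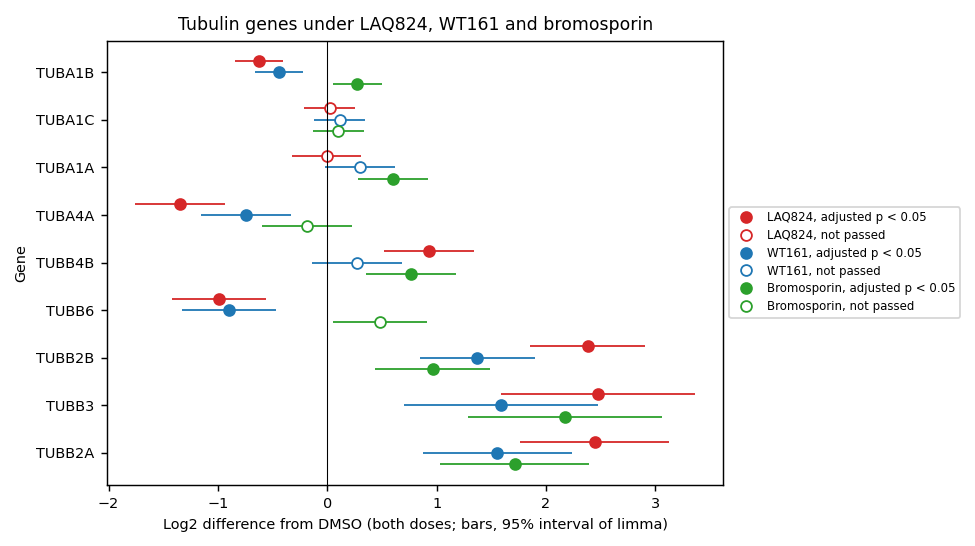
Estimated log2 differences from DMSO (both doses together) of the 9 measured tubulin genes under LAQ824, WT161 and bromosporin, with bars for limma's 95% interval and filled points for an adjusted p under 0.05. The 3 compounds lie to the right of 0 for TUBB2A, TUBB3 and TUBB2B, and for TUBB6 and TUBA1B bromosporin lies to the right of 0 and the other 2 to the left.

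SGC-CBP30, aimed at the CREBBP/EP300 bromodomain, called 3.41% of all genes (119 higher and 439 lower, and 74 and 625 with median-ratio scaling) and 0 of 9 members. At 10 µM it had TUBB3 at 84.6, TUBB2B at 131.7 and TUBB2A at 35.5 TPM, above all DMSO samples, and at 1 µM 25.1, 76.3 and 16.1 TPM. At 1 µM TUBB3 was thus below DMSO and the other 2 genes inside its range. TUBA4A was the only member at an unadjusted limma p under 0.05 (-0.50).

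Trametinib had 2 tubulin genes past the threshold and UNC0638 had 1. With trametinib, TUBA1A was at 822.2 and 787 TPM against 477.8 to 523 TPM in DMSO, 0.68 ± 0.16 higher (limma adjusted p = 0.014). TUBA4A was at 141.8 and 145.9 TPM, a log2 change of -0.83 ± 0.20 (limma adjusted p = 0.021). TUBB3 (39.5 and 41.8 TPM), TUBB2A (20.4 and 21.2 TPM) and TUBB2B (81.3 and 88.0 TPM) did not pass. Their trametinib values nevertheless lay above every DMSO sample at both doses. At an unadjusted limma p under 0.05 trametinib had 3 members. Trametinib called 2.7% of all genes, so that 2 of 9 members stand beside a low background. With UNC0638, TUBB6 was at 283.8 TPM at 1 µM and 126.6 TPM at 10 µM, the lowest TUBB6 level of the screen, a change of -0.90 ± 0.21 (limma adjusted p = 0.011). UNC0638 called 12.1% of all genes (388 higher and 1596 lower, and 601 and 1008 with median-ratio scaling). At 10 µM it also had the lowest TUBB3 (10.6 TPM) and TUBB2B (44.5 TPM) of the screen, and TUBB3 (-0.97) did not pass over both doses (limma adjusted p = 0.13). The other 11 compounds called 0.0122 to 5.70% of all genes and 0 members each.

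These calls rest on the spread shared over all compounds, in which the step between a compound's doses counts as spread. In a fit of each compound and DMSO alone, LAQ824 kept its 7 calls and trametinib its 2, whereas bromosporin, WT161 and UNC0638 had 0 of 16359 genes called, tubulin or other. With only 1 of the DMSO concentrations as control, 4 calls were lost: TUBA1B with bromosporin, both trametinib calls and the UNC0638 call.

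Some members were lower than DMSO in most samples of compounds with no call. In 20 samples of the 10 compounds on C5JW5ACXX with no call, the median difference from DMSO was -0.53 (log2) for TUBB3, with 17 of 20 samples below every DMSO sample. It was -0.40 for TUBB4B and -0.32 for TUBB6, with 19 of 20 below, and between -0.14 and 0.01 for the other 6. TUBB4B and TUBB6 were also below every DMSO sample in 6 of 6 such samples on C4JM1ACXX and H144EBGXX, the flow cells that held the DMSO samples. TUBB4B differed there by medians of -0.56 and -0.30 and TUBB6 by -0.14 and -0.11. TUBB3 was below DMSO in 3 of these 6, with medians of -0.17 on C4JM1ACXX and 0.58 on H144EBGXX. On C5JW5ACXX compound and control were never run together, so for its own samples a flow cell difference and one common to the compounds cannot be told apart. With the other compounds of the flow cell as reference, WT161 gave 1.80 for TUBB3, 1.53 for TUBB2A and 1.37 for TUBB2B, and bromosporin gave 2.43 for TUBB3. With that reference TUBB4B with WT161 (0.57) and TUBB6 with bromosporin (0.88) also passed, and TUBA4A with trametinib (-0.59, limma adjusted p = 0.076) no longer did. LAQ824 and MC 1568, run beside DMSO on H144EBGXX, had the same 7 and 0 calls against the DMSO samples of that flow cell.

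Dose was compared over all 20 compounds with the compound as block, high minus low. Of the 9 members 0 passed, beside 0.0% of all tested genes. At an unadjusted limma p under 0.05 there were 2874 genes, among them 1 member, TUBA4A, at -0.17 ± 0.06 (limma adjusted p = 0.16). High doses went with 0.2% and low doses with 0.1% DMSO. With the step between the DMSO concentrations subtracted, 13.6% of all genes and 0 members passed, but this fit takes the DMSO step, 1 value per gene for all compounds, as free of error. In single compounds, which have 1 sample a dose and no test, the step of TUBB3 ran from -0.87 (log2) with UNC0638 to 1.79 with SGC-CBP30, each dose against the DMSO of its level.

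The 7 acetylation-axis compounds were set against the 11 methylation-axis compounds on their mean changes, the split on which the study was built. TUBB3 was 1.36 ± 0.35 (log2, SE) higher on the acetylation axis, TUBB2A 1.07 ± 0.30 and TUBB2B 0.93 ± 0.24, each at a limma adjusted p of 0.057. TUBB4B was 0.52 ± 0.17 higher (limma adjusted p = 0.073). No member passed, beside 0.0% of all tested genes, while 5 members and 5012 genes had an unadjusted limma p under 0.05. With genes of a mean TPM of at least 5, so that 11106 genes were tested, these 3 genes passed at a limma adjusted p of 0.045, beside 6.55% of all genes. With high doses only 4 members passed, beside 9.35%. For TUBB3 the axis means were 0.89 and -0.47, the former including LAQ824, WT161 and bromosporin and also Merck60 and OJI-1, whose TUBB3 was below DMSO.

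The DMSO concentrations were compared as a control of the controls. Of the 9 members 0 passed, beside 0.0% of all genes with 1548 genes and no member at an unadjusted limma p under 0.05. The largest member difference was -0.14 ± 0.10, in TUBB2A.

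Outside the screen, N1302, labelled with HDAC, had 1 sample and 1 control, so differences carry counting intervals (95%) only and no test. TUBB3 was at 175.4 TPM against 17.2 TPM in its DMSO, a log2 difference of 3.28 (3.11 to 3.45). TUBB2A was at 112.9 against 14.4 TPM (2.89, 2.70 to 3.08) and TUBB2B at 447.1 against 80.2 TPM (2.46, 2.39 to 2.54). TUBB4B was at 2411 against 892.8 TPM (1.43, 1.40 to 1.46). These 4 were at least 2-fold higher and 0 were 2-fold lower, where 11.6% of all tested genes were 2-fold higher and 19.3% lower. TUBA1A differed by 0.33 and TUBA1C by 0.25. TUBB6 (166.7 against 200.4 TPM, -0.26), TUBA4A (180.7 against 237.6 TPM, -0.39) and TUBA1B (3025 against 4035 TPM, -0.42) were lower. Median-ratio scaling added 0.33 to every N1302 value, which turned TUBB6 to 0.07 and left TUBA1B at -0.08 and TUBA4A at -0.06. With both 6 h controls of the line as reference (the second from the time course), TUBA1A was at 0.90, TUBA1C at 0.49, TUBA4A at -0.85 and TUBB6 at -0.40, while the 4 beta genes that were 2-fold higher lay between 1.38 and 3.53.

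Entinostat, a benzamide inhibitor of HDAC1/2/3, was followed over time with 1 sample per time. At 1 h all 9 members were within 0.15 of DMSO on the log2 scale, and 0 reached 2-fold in either direction (0.66% of all genes higher, 0.581% lower). At 6 h TUBB3 was at 22.6 against 11.9 TPM (0.87, 95% counting interval 0.66 to 1.09), TUBB2B at 127.5 against 76.6 TPM (0.73) and TUBB2A at 17.6 against 12.6 TPM (0.45). TUBB4B was lower at this time, at 706.3 against 966.2 TPM (-0.45). Again 0 members reached 2-fold, beside 5.13% of genes higher and 0.947% lower. At 24 h TUBB3 was at 129.9 against 12.7 TPM (3.26, 3.08 to 3.43), TUBB2A at 50.9 against 12.2 TPM (1.98) and TUBB2B at 207.8 against 83.5 TPM (1.31). TUBA1A, which bromosporin and trametinib also raised, was at 680 against 225.8 TPM (1.59). These 4 members were 2-fold higher and 0 were 2-fold lower, beside 16.4% and 6.06% of all genes. TUBA4A was at 224.1 against 432 TPM (-0.94) and TUBA1B at 2461 against 3884 TPM (-0.66), while TUBB4B (0.04) and TUBB6 (-0.06) were near DMSO. The low beta genes were thus higher at 24 h than at 6 h, each against the DMSO of its own time.

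**Figure D4:**
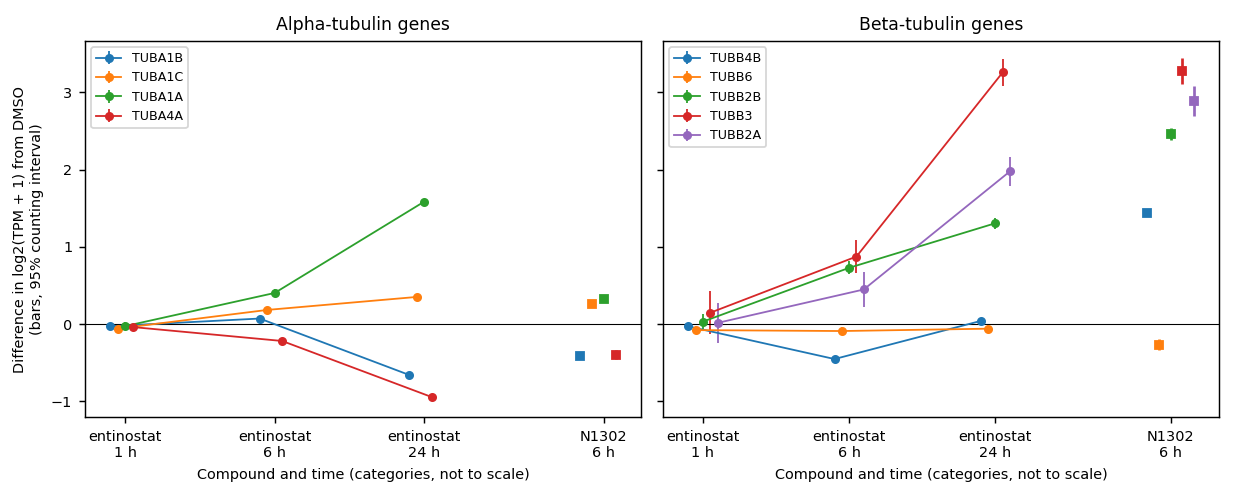
Difference in log2(TPM + 1) from DMSO of the alpha genes (left) and beta genes (right) after 1, 6 and 24 h of entinostat (joined circles) and 6 h of N1302 (squares), 1 sample each; bars are 95% counting intervals and the time axis is categorical. TUBB3 goes from 0.15 at 1 h to 0.87 at 6 h and 3.26 at 24 h of entinostat, beside 3.28 at 6 h of N1302.

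Baseline levels outside the screen differed from those in it. TUBB3 was at 17.2 TPM in the N1302 control and at 10.6, 11.9 and 12.7 TPM in the time-course controls, against 29.1 to 31.7 TPM in the screen. TUBA1A was at 199.6 TPM in the 6 h time-course control and at 445.3 TPM in the N1302 control, though both carry the same line, time and DMSO labels. With both of these controls as reference, entinostat at 6 h had TUBA1A at -0.17 in place of 0.40, TUBA4A at 0.24 in place of -0.22 and TUBA1C at -0.06 in place of 0.18. TUBB2A, TUBB2B and TUBB3 stayed higher, at 0.36, 0.70 and 0.62.

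The make-up of the measured beta-tubulin transcripts differed between treated and DMSO samples. The share of TUBB2A, TUBB2B and TUBB3 in the measured beta transcripts was 18.7 and 20.3% with LAQ824 and 13.5 and 18.2% with WT161, against 6.61 to 6.88% in DMSO. It was 9.76 and 12.6% with bromosporin, 22.2% with N1302 (9.28% in its DMSO) and 24.3% with entinostat at 24 h (8.33%). In the 30 samples of compounds with no call the share ran from 6.33 to 12.2%. The summed beta transcripts were at 3406 and 3326 TPM with LAQ824 and at 1776 and 2573 TPM with WT161, against 1790 to 1821 TPM in DMSO. The alpha sum was lower, at 3277 and 3184 TPM with LAQ824 and 3929 and 3519 TPM with WT161, against 4389 to 4645 TPM. With bromosporin both sums were above DMSO, alpha at 4948 and 6013 TPM and beta at 2361 and 4074 TPM. All beta sums lack TUBB, so they are not the whole beta-tubulin pool.

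**Figure D5:**
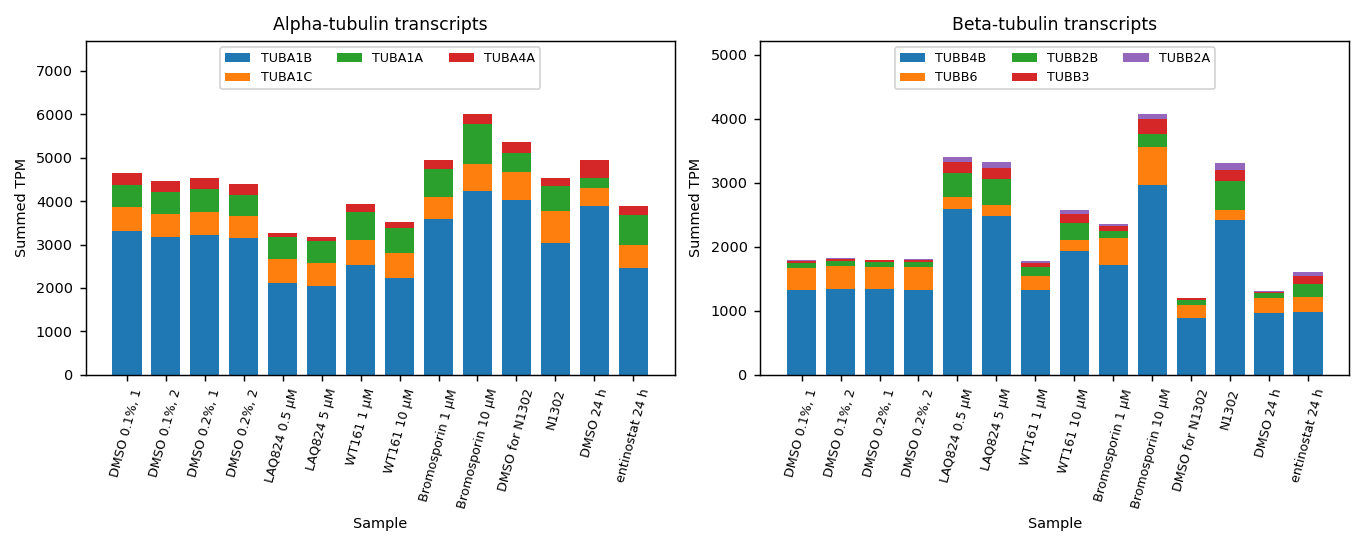
Summed TPM of the alpha genes (left) and of the measured beta genes without TUBB (right) in single samples, stacked by gene from 0. With LAQ824 the alpha bars are shorter (3277 and 3184 TPM) and the beta bars taller (3406 and 3326 TPM) than in DMSO, and with bromosporin at 10 µM both are taller (6013 and 4074 TPM).

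Members that moved together are described by correlations of log2(TPM + 1) over the 40 treated screen samples, which share controls, doses of 1 compound and flow cells and are not independent. TUBB2A and TUBB3 had r = 0.96, TUBB2A and TUBB2B 0.91, TUBB2B and TUBB3 0.91, and TUBB4B had 0.92, 0.90 and 0.83 with TUBB2A, TUBB3 and TUBB2B. TUBB6 had between -0.12 and 0.11 with these 4, and 0.63 with TUBA1B. Within the 28 samples of C5JW5ACXX, TUBB6 had between 0.29 and 0.45 with TUBB2A, TUBB2B and TUBB3 and 0.47 with TUBB4B, whereas the pairs among those 4 had between 0.80 and 0.97. TUBA1B and TUBA4A had 0.64. TUBB2A and TUBB2B share much of their sequence, as given above, and the part of shared reads in their likeness was not tested. Over all other genes, those most like TUBB3 were FAM43A (r = 0.949), KIAA1161 (0.947) and EPB41L5 (0.947). Those most like TUBB2A were ZCCHC24 (0.963), GNAI2 (0.959) and MKNK2 (0.957), and most like TUBB2B were LOC728392 (0.960), GFPT2 and POLR2L (both 0.958). GALNT1 (0.908) led for TUBB6, ACTN1 (0.886), an actinin, for TUBA4A and TRA2B (0.862) for TUBA1B. For TUBA1C the highest was AMD1 (0.784) and for TUBA1A SPARC (0.700), so that these 2 members had no close partner.

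Genes that fold, modify or bind tubulin were read from 8 lists. Of 79 tested list genes, LAQ824 raised 20 and lowered 22, WT161 raised 18 and lowered 10, MC 1568 raised 17 and lowered 8, and bromosporin raised 4 and lowered 23. As shares these were 25.3% and 27.8% with LAQ824, 22.8% and 12.7% with WT161, 21.5% and 10.1% with MC 1568 and 5.06% and 29.1% with bromosporin. For LAQ824, WT161 and bromosporin the shares over all genes are given above, and MC 1568 raised 19.6% and lowered 2.92% of all genes. The chaperonin CCT, which folds new actin and tubulin, had 0 of 9 subunits higher and 6 lower with LAQ824 and 2 higher and 3 lower with WT161. CCT5 fell the most, from 309.4 to 327.3 TPM in DMSO to 152.3 and 144.8 TPM with LAQ824 (-1.10 ± 0.17, limma adjusted p = 1.2e-05). Prefoldin, which hands tubulin to CCT, had 2 of 5 tested subunits lower and 0 higher with LAQ824 and 1 lower with WT161. With MC 1568 and with bromosporin 4 of these 5 were lower and 0 higher, with a median of -0.62 in both. Its subunit VBP1 fell by 1.42 on the log2 scale with LAQ824 and 0.67 with WT161 (both past the threshold). Of the 7 genes listed as tubulin folding cofactors and their relatives or regulators, 3 rose and 1 fell with LAQ824 and 1 and 1 with WT161. TTC5, the factor that targets tubulin transcripts for decay when free tubulin is high, passed with neither and fell by 0.87 with bromosporin, and is named after its values were seen, as the only gene of its list.

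Among 15 tested modifying enzymes, 5 rose and 4 fell with LAQ824 and 4 and 2 with WT161. SIRT2, a second tubulin deacetylase, was at 271.4 and 265.8 TPM with LAQ824 and 173.2 and 243.1 TPM with WT161, against 82.5 to 88.4 TPM in DMSO. It rose by 1.65 ± 0.12 and 1.26 ± 0.12 (limma adjusted p of 2.1e-09 and 3.2e-07). With N1302 it was at 358.4 against 132.1 TPM and with entinostat at 24 h it was lower, at 67.7 against 215.3 TPM. TTLL11, a polyglutamylase, rose with LAQ824 (1.47) and WT161 (1.24), TTLL4 fell with both (-1.03 and -0.54), and TTLL6 rose with MC 1568 (1.37) and fell with bromosporin (-1.11).

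Of 11 tested destabilising and severing genes, 4 rose and 1 fell with LAQ824 and 2 and 0 with WT161. STMN3, a stathmin that binds tubulin dimers, rose with MC 1568 (1.11) and not with LAQ824 (-0.05, not passed). Of 23 microtubule-associated proteins, 7 rose and 7 fell with LAQ824 and 8 and 3 with WT161. MAP2, the dendritic microtubule-associated protein, was at 42.4 and 44.5 TPM with LAQ824 and 12.7 and 41.0 TPM with WT161, against 2.74 to 3.60 TPM in DMSO. It rose with all 4 compounds, by 3.42 with LAQ824, 2.53 with WT161, 1.58 with MC 1568 and 1.61 with bromosporin, and was at 170.5 against 6.78 TPM after 24 h of entinostat. MAPRE3, an end-binding protein, rose by 3.31, 2.23 and 1.06 with LAQ824, WT161 and MC 1568, and TPPP rose by 2.07 and 0.95 with LAQ824 and WT161. TPPP was low in DMSO, at 0.55 to 0.68 TPM. With WT161 it was at 0.79 TPM at 1 µM and 4.36 TPM at 10 µM, so that rise lay mainly in 1 sample. CLIP1, which tracks growing plus ends, fell by 2.06 with LAQ824 and 1.32 with WT161. Of 8 tested other tubulins, TUBE1 (epsilon-tubulin, of centrioles) rose with LAQ824 (1.35), WT161 (0.74) and MC 1568 (0.79). Of the same 8, TUBB1 (-0.70) fell with LAQ824, and TUBB1 (-1.17), TUBA8 (-1.17) and TUBD1 (-0.51) fell with bromosporin while 0 rose, these genes being named after their values were seen. Medians over the lists lay between -0.49 and 0.34 with LAQ824 and between -0.33 and 0.22 with WT161, against 0.06 and 0.03 over all genes.

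Markers of nerve and muscle moved in the same samples. The 9 neuronal markers summed to between 11.1 and 12.6 TPM in DMSO, 99.5 to 104 TPM with LAQ824, 22.1 to 64.9 TPM with WT161 and 24.1 to 62.8 TPM with bromosporin. Of 6 that were tested, 5 rose with LAQ824 (SYN1, SYT1, ELAVL3, RBFOX3 and INA), 4 with WT161, 3 with bromosporin and 2 with MC 1568. The neuronal SNAP25 and the neurofilament gene NEFL were at 0 in every DMSO sample, and SNAP25, NEFL, NEFM and ELAVL4 stayed under 1 TPM with LAQ824, WT161 and bromosporin. The neuronal sum was 184.5 against 32.1 TPM with N1302 and 160.1 against 24.3 TPM with entinostat at 24 h. The myogenic sum was 882.5 to 889.4 TPM with LAQ824, 1120 to 1680 TPM with WT161 and 1280 to 1759 TPM with bromosporin, against 2776 to 2857 TPM in DMSO. Of 7 tested myogenic markers, 6 fell and 1 rose (MYH3, 0.50) with LAQ824. With WT161 and with bromosporin 5 fell and 0 rose, and DES did not pass with WT161 (0.07). With MC 1568, 0 fell and 1 rose. In the treated samples of compounds with no tubulin call the myogenic sum ran from 1154 to 3053 TPM and the neuronal sum from 11.3 to 51.0 TPM, so these ranges overlap those of WT161 and bromosporin. Epithelial and endothelial sums were at most 1.37 TPM in the DMSO, LAQ824, WT161 and bromosporin samples, and the leukocyte sum was 12.51 to 13.02 TPM with LAQ824 against 3.55 to 4.50 TPM, with PTPRC at 0 in both. In bulk RNA, fewer cells of a type and less RNA per cell cannot be told apart, and the part of these markers in the tubulin values was not tested. The 7 proliferation genes summed to 1676 to 1684 TPM with LAQ824 and 1729 to 2141 TPM with WT161, against 2029 to 2100 TPM in DMSO and 1259 to 2379 TPM with the compounds without a tubulin call, and their part was not tested either. Among these 7 genes, 0 rose and 4 fell with LAQ824, and 1 rose and 3 fell with WT161. With bromosporin 2 rose and 2 fell, so the sums hide opposite movements.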

How the data were processed

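Poly-A libraries of RNA from FP-RMS cells were sequenced from both ends. The paper describes mapping to hg19 with STAR and abundance estimates with RSEM. The whole multiples given below show no sign of reads divided in fractions between genes. Whether the deposited TPM came from RSEM was not tested. The deposited values are TPM per gene, which the authors adjusted for gene length and library size, 1 table per sample, with no pooling of replicates. TPM values of each gene were whole multiples of a step (100.0% of 23645 genes above 0), which gave read numbers and depth. These whole reads served for counting intervals, depth and the voom alternative only. A TPM is relative to all other transcripts of its sample, so a large change elsewhere moves it.

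Samples were grouped by their labels. Genes that reached a TPM of 1 in at least 2 of the 52 samples were tested with limma 3.58.1 (R 4.3.3; lmFit, eBayes with trend) on log2(TPM + 1), over the 44 screen samples in 1 fit, with Benjamini-Hochberg adjustment over 16359 genes. Both doses of a compound were its replicates. DMSO runs were averaged per concentration: for 10378 genes with at least 100 reads, the part of the difference between runs that neither concentration nor flow cell gave had a median of 1.03 times the counting variance, against 2.21 for the flow cell part. For the concentration part this median was 2.47. Conditions with 1 sample got no test. The members and gene lists were chosen with earlier results of these data known. Named genes were the members, list genes that passed at 2-fold or more with LAQ824, WT161 or MC 1568 (at most 3 per list and direction), and the 3 genes most correlated with each member; for some members only the first is given, and 2 genes that this rule names are not reported here. TTC5, TUBB1, TUBA8 and TUBD1 were named after their values were seen. Tested on simulated data for WT161 against DMSO (16359 genes), the fit recovered 74 of 95 genes changed by a log2 of 1 and 105 of 105 changed by 2, with 12 false calls. The simulation changed only genes of higher level, by the same amount at both doses and with the shared spread. It therefore does not cover a compound whose doses differ, as those of WT161 did. Alternatives were the pseudocount, filters, median-ratio scaling, other DMSO references, single doses, voom and left-out controls. Sequences came from RefSeq promoters (GRCh38.p14; all 10 members matched), and shared windows from the hg19 transcripts of GENCODE. Other steps used Python 3.11.15 (pandas 2.3.3, numpy 2.4.6, scipy 1.17.1).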

Additional observations from a re-analysis of the deposited data

Results flagged for a closer look

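In the entinostat course 3 members changed sign against DMSO between times, both values lying beyond their counting intervals. TUBA1B went from -0.03 (log2) at 1 h to 0.07 at 6 h, a difference of 0.0994, and then to -0.66 at 24 h, a difference of -0.73 from 6 h. TUBA1C went from -0.06 at 1 h to 0.18 at 6 h, a difference of 0.242, and to 0.35 at 24 h, a difference of 0.410 from 1 h. TUBB4B went from -0.45 at 6 h to 0.04 at 24 h, a difference of 0.493. Each time had 1 treated and 1 DMSO sample, so these differences between times were not tested. With the mean of the 3 time-course controls as reference, TUBA1B was at 0.038 and TUBA1C at 0.0090 at 1 h, so that neither changed sign between 1 h and 6 h. With both 6 h controls of the line TUBA1C was at -0.06 at 6 h.

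Of the 4 screen DMSO samples, 1 of those with 0.1% DMSO stood apart in TUBB2A, at 18.2 TPM against 14.8 to 15.2 TPM in the other 3. In groups of this size such a gap is expected by chance in about 1 of 20, and 9 members were looked at.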

How the results depend on the processing

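Against 22 tubulin calls, alternatives gave totals of 18 to 32 (pseudocount, filters, scaling, DMSO references, low doses, voom), 21 to 22 with 1 DMSO run left out and 52 with high doses alone, where the spread came from the DMSO samples and the prior only. Of the 22 calls themselves, 18 to 22 still passed in these alternatives, 20 of them with high doses alone (both trametinib calls were lost); with the other compounds of the flow cell as reference 14 of 15 did. No called value changed sign under any alternative. All 4 genes called with LAQ824 as higher and the 3 as lower, and the 3 beta genes higher with WT161, passed in every alternative that used the shared spread; with each compound and DMSO alone, 13 of 22 calls were lost, and the cause was not tested. TUBA1B with bromosporin (adjusted p 0.049) was lost at a pseudocount of 0.1 (0.050), without a filter (0.088), and without DMSO replicate 2 of either concentration (0.056 and 0.062). The 23 of 36 differences of WT161 from other HDAC compounds kept their sign, and their count ran from 21 to 26. The axis comparison had 0 member calls, 3 with a mean TPM of at least 5 (6.55% of all genes) and 4 with high doses only (9.35%). Median changes moved for N1302 (0.33; 0.66 with scaling, 0.90 with both 6 h controls), entinostat at 6 h (0.18; 0.31 and 0.065 likewise) and at 24 h (0.35; 0.45 with scaling, 0.26 with the mean of 3 controls), LAQ824 (0.02; 0.10 with scaling) and WT161 (0.27; 0.11 with low doses only).

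The replicate numbers of the DMSO runs name a flow cell, and same-numbered runs correlated by 0.07 in their deviations. With the replicate block the comparison of DMSO concentrations had 0 calls, as without it.

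TUBB2A and TUBB3 rest on as few as 40 and 47 reads in a sample, and the 1-sample conditions carry counting error only.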
